A study of Rattus norvegicus with 24 samples.

Results

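The proteasome is the protease complex that degrades proteins tagged with ubiquitin, and its genes carry symbols that begin with Psm. All genes of the deposited table whose symbol starts with Psm, a letter from a to g and a digit were taken, without the immunoproteasome subunits Psmb8, Psmb9 and Psmb10. This gave 44 genes out of 20318 features, and all 44 passed the filter for testing, a mean of 10 normalised counts or more, as did 16119 of the features. By role they comprised 8 genes of the alpha ring and 7 of the beta ring of the core particle, and 6 ATPases, 3 other base subunits and 8 lid subunits of the regulatory cap. A further 3 were assembly chaperones of the cap, 4 were assembly chaperones of the core, 3 were activators and 1 was an inhibitor. The last gene, Psmc3ip, matches by name only: it encodes a cofactor of meiotic recombination, known from mouse and yeast, and is not a proteasome subunit. No feature of the table was matched to Psmb6 or Psme3, so neither was analysed, and the 7 beta ring genes include Psmb11 but not Psmb6.

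The 24 libraries hold RNA of rat hippocampus, from females that were operated on at 6 months of age, in 4 groups. The Prevention group (5 libraries) lost its ovaries and received estradiol (E2), the main ovarian estrogen, for 5 weeks. The Treatment group (5 libraries) lost its ovaries, received vehicle for 3 weeks and then E2 for 2 weeks. The OVX group (7 libraries) lost its ovaries and received vehicle for 7 weeks, and the SHAM group (7 libraries) kept its ovaries and also received vehicle for 7 weeks. The weeks given for both E2 groups add up to less than those of the vehicle groups, so E2 and the length of the experiment cannot be told apart. The labels do not tie a library to a single animal, and p-values therefore measure the spread between these libraries.

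The core particle is a barrel of stacked rings: outer alpha rings gate the entrance and inner beta rings hold the catalytic sites. The regulatory cap recognises ubiquitin chains, removes them and unfolds the substrate with its ring of ATPases, while dedicated chaperones assemble core and cap. Neurons depend on the proteasome for protein turnover at synapses, and in mammals the transcription factor Nfe2l1 raises many subunit genes together when proteasome activity falls, through antioxidant response elements in their promoters. Many of these promoters also carry a CCAAT box, the sequence bound by NF-Y.

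The promoters of 4 of these genes are given with matches to both motifs in capitals. The sequences are from RefSeq on the rat build GRCr8, run 5′ to 3′ on the gene's own strand, and cover 250 bases before to 50 bases after the start. Capitals mark the CCAAT box (CCAAT, or ATTGG where it lies on the other strand) and the core of the antioxidant response element (TGACNNNGC on either strand). Psmb5 (chr15:32047330-32047629, minus strand) holds the core 60 bases before the start, Psma3 (chr6:95219499-95219798, plus strand, listed in the table under its older symbol Psma3l) holds both motifs, Psmb2 (chr5:144254808-144255107, plus strand) holds both with 1 overlap, and Psmc4 (chr1:92485011-92485310, minus strand) holds neither.
Psmb5: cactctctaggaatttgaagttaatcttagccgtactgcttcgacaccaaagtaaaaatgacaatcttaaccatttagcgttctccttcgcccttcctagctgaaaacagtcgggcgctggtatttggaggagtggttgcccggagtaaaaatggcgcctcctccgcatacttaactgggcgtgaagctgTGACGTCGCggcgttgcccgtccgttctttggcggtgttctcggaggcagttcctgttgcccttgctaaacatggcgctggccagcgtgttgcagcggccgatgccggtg
Psma3: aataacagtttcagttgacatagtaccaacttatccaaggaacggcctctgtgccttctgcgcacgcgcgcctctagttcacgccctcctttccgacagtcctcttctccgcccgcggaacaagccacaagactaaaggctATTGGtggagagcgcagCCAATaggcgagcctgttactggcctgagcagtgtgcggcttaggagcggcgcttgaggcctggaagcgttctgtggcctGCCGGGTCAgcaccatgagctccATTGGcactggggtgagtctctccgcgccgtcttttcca
Psmb2: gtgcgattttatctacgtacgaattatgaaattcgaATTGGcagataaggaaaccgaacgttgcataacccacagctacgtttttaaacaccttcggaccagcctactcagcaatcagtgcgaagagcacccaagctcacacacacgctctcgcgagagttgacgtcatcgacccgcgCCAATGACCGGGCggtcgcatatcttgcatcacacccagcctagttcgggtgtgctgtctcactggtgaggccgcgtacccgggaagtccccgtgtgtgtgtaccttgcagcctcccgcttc
Psmc4: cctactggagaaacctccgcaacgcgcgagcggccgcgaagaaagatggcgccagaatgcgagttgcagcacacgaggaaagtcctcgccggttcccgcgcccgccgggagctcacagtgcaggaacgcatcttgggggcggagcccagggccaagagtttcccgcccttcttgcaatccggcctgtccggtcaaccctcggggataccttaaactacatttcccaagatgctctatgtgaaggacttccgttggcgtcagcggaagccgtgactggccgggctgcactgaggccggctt
A promoter entry was matched for 39 of the 44 genes. The CCAAT box was present in 19 of these (48.7%), with Psmc3ip, which is not a subunit, among them, beside 37.5% of all 33469 promoter windows of the same length. For the 39 genes only the first listed window of each was used, while all windows were counted whether or not they shared a gene. The antioxidant response element core was present in 7 (17.9%), in Psma3, Psmb2, Psmb5, Psmd1, Psmd3, Psmd9 and Psme4, beside 12.1% of all windows. Both motifs stood together in 3 (7.69%), beside 4.42% of all windows. A match is a description of these letters and not a binding site.

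Values are the authors' normalised counts, compared on the scale log2(normalised count + 1), and sequencing depth is unknown. Normalised counts summed to about 35374900 in the lowest library and 38830700 in the highest. A feature of the table named LOC257642 splits the libraries: its log2 value was 16.8 to 19.7 in 7 libraries, all 5 of Prevention and Treatment replicates 1 and 2, and 14.0 to 15.2 in the other 17. These are called the high set and the low set, since the labels name no batch; Prevention against OVX or SHAM lies wholly across them. Of the hippocampal markers, 7 of 8 had a mean of at least 10 and none was at 0 in any library (Spink8 averaged 5.04). The level of 10 thalamic markers, as a mean log2 value, ran from 8.13 to 10.7 in Prevention and 7.99 to 10.3 in Treatment. It ran from 7.80 to 10.4 in OVX and 8.05 to 10.9 in SHAM, and 1 of the 10 markers was at 0 in some library. The level of 11 choroid plexus markers ran from 4.92 to 11.6 over all libraries, with none at 0. In this bulk tissue, fewer cells of a type and less RNA per cell cannot be told apart. RefSeq lists 45 pseudogenes or similar copies named after 17 of the genes, among them 10 of Psmb3, 5 of Psma6 and 3 each of Psma7, Psmc4, Psme1, Psme2 and Psmg4, and the reads of these genes may be shared with the copies.

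No proteasome gene passed an adjusted p of 0.05 in any of the 6 comparisons of groups, tested with limma over all 16119 features. By their median, the largest differences were those of Prevention from OVX, where 40 of the 44 genes were lower, the core subunit Psma7 by -0.21 on the log2 scale, and those of OVX from SHAM, where 42 of the 44 were higher by small amounts. Within OVX a single library, OVX 3, held the highest value of 33 of the 44 genes, and both medians were closer to 0 without it. With the library set as a term in the fit, the median in Prevention against OVX was -0.0087, and 21 of the 44 genes had the opposite sign. The map of all 44 genes by library shows OVX 3 as a column of high values.

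**Figure D1:**
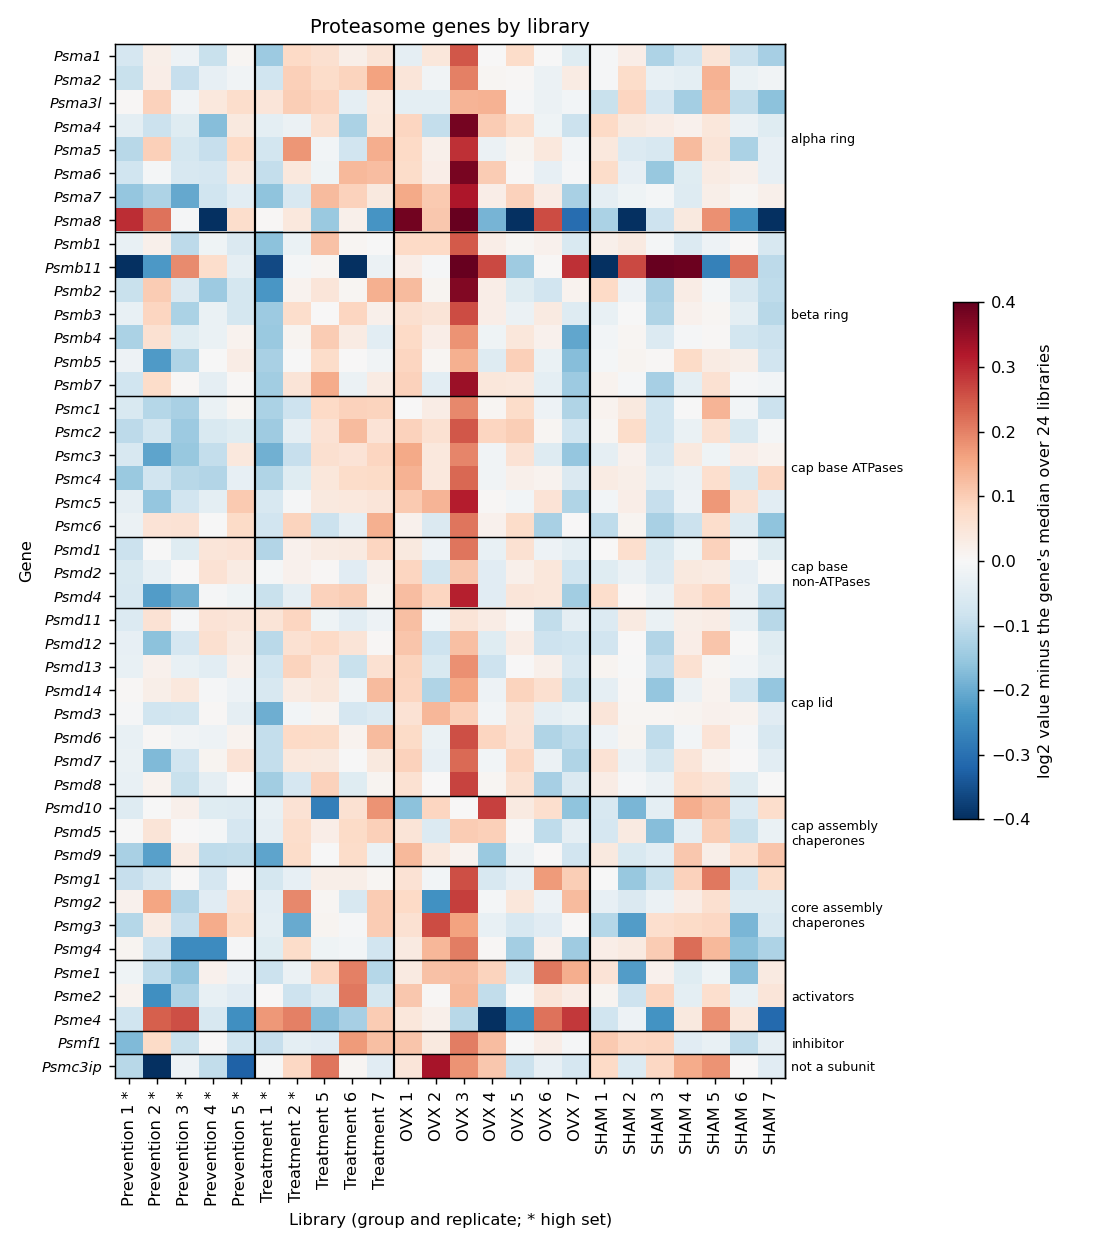
Each cell is the log2 normalised count of a gene (rows, by role) in a library (columns, by group and replicate) minus that gene's median over 24 libraries, with colours limited to 0.4 either way; an asterisk marks the high set. The OVX 3 column is high for most genes (33 of 44 have their highest value there), while Psme4 has its highest value in OVX 7.

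In OVX against SHAM, 0 of 44 genes were called, against 0% of all tested features, and 1 of 44 (2.27%) had an unadjusted p under 0.05, beside 6.25% of all features. The log2 change was above 0 for 42 of 44 genes, beside 51.7% of all features, with a median of 0.050 beside 0.0043 over all features. In Prevention against OVX, 0 of 44 were called, against 0.304% of all features, and 12 of 44 (27.3%) had an unadjusted p under 0.05. All 12 were lower in Prevention, where 8.56% of all features were lower at that p and 18.6% differed in either direction. The change was below 0 for 40 of 44, beside 49.7% of all features, with a median of -0.077.

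In Treatment against OVX, 0 of 44 were called, against 0% of all features, and 1 (2.27%) had an unadjusted p under 0.05, beside 7.19% of all features. The median change was -0.027, with 35 of 44 below 0, beside 50.6% of all features. In Treatment against Prevention, 0 of 44 were called, against 0% of all features, and 4 of 44 (9.09%) had an unadjusted p under 0.05, beside 5.38% of all features. All 4 were higher in Treatment, where 2.76% of all features were higher at that p. The median was 0.047, with 36 of 44 above 0, beside 48.9% of all features. Against SHAM, 0 of 44 were called for Prevention (0.354% of all features) and 0 of 44 for Treatment (0.0062% of all features), and 3 and 0 of 44 had an unadjusted p under 0.05, beside 13.3% and 6.1% of all features. The 3 genes of Prevention were lower than in SHAM, beside 5.85% of all features lower at that p. The medians against SHAM were -0.023 for Prevention, with 29 of 44 below 0 beside 49.1% of all features, and 0.015 for Treatment, with 29 of 44 above 0 beside 51.6%. In none of the 6 comparisons were the groups without overlap for any of the 44 genes, while 0.0248% of all features had groups apart in OVX against SHAM, 1.86% in Prevention against OVX, 0.298% in Treatment against OVX, 1.2% in Treatment against Prevention, 2.48% in Prevention against SHAM and 0.484% in Treatment against SHAM. Comparisons that share a group share its libraries, and the shares over genes carry no test, since all genes were measured in the same libraries.

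The 95% intervals of the fit give a range for the change of each gene singly, without adjustment for the number of genes. In Prevention against OVX or SHAM, intervals without the library set as a term cover group and set together. In OVX against SHAM and in Treatment against Prevention, the intervals of all 44 genes lay within a 1.5-fold change in either direction, and in the other 4 comparisons those of 43 of 44 did, Psmb11 being the exception. With the library set as a term the intervals were wider: in both Prevention against OVX and Prevention against SHAM, 40 of 44 lay within that range, with Psma8, Psmb11, Psmc3ip and Psme4 outside. In Treatment against OVX 42 of 44 did, and in the comparisons of Treatment with Prevention and SHAM 43 of 44 each. The ranges that follow are from the fit without the term. For the 41 genes other than Psmb11, Psma8 and Psmc3ip, the changes ran from -0.21 to 0.075 in Prevention against OVX, with bounds between -0.32 and 0.33. They ran from -0.043 to 0.14 in OVX against SHAM, with bounds between -0.23 and 0.26.

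**Figure D2:**
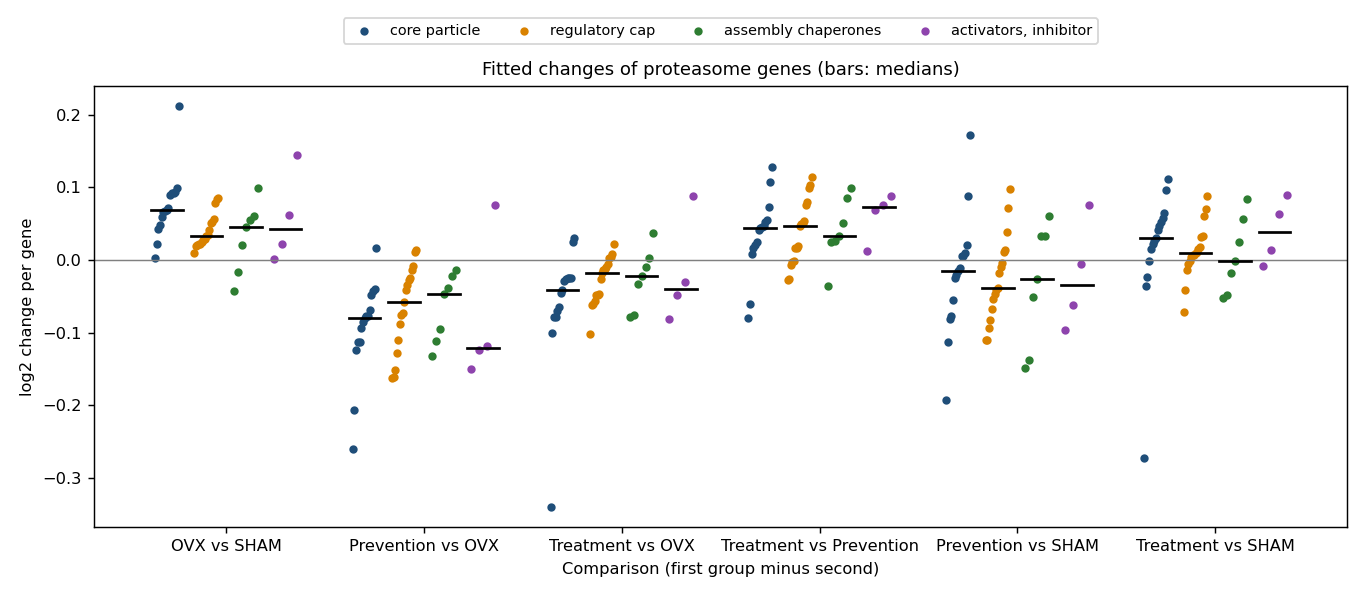
Each point is the fitted log2 change of a gene (vertical axis) in a comparison (horizontal axis, first named group minus second), coloured by the part of the proteasome, and black bars are medians; Psmc3ip is left out. All 15 core and 17 cap genes lie above 0 in OVX against SHAM, and 14 of 15 core and 15 of 17 cap genes lie below 0 in Prevention against OVX. The fit shown has no term for the library set.

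Among the alpha ring genes, whose products gate the core, the median change was -0.077 in Prevention against OVX, with 7 of 8 lower, and 0.081 in OVX against SHAM, with 8 of 8 higher; 0 of 8 were called in either. With the library set as a term, Psma1 (0.010) and Psma2 (0.024) had positive changes in Prevention against OVX, and the other alpha genes negative ones. Psma7, an alpha subunit, had the smallest p of all 44 genes in Prevention against OVX. Its normalised count was 2939, 3004, 2840.1, 3096 and 3181 in the 5 Prevention libraries, against 2992 (lowest), 3488 (median) and 4097 (highest) in the 7 OVX libraries. All 5 Prevention values were below the OVX median, and the groups overlapped only through OVX 7, at 2992. Psma7 averaged 3012 ± 133 in Prevention and 3487 ± 338 in OVX (SD, n = 5 and 7), a difference that did not pass (log2 change -0.21, SE 0.057, 95% interval -0.32 to -0.090, adjusted p = 0.0748). Without OVX 7 it did pass (log2 change -0.24, adjusted p = 0.0235), in a fit that called 2.99% of all features. Without OVX 3, which held the highest Psma7 value, 0 of the 44 genes were called in Prevention against OVX, beside 0.0745% of all features. With the library set as a term in the fit, the Psma7 change in Prevention against OVX was -0.0081.

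Psma7 in the Treatment libraries was 2929, 3129.9, 3571, 3493 and 3364, for replicates 1, 2, 5, 6 and 7. The first 2 values, from the high set, lay within the Prevention range, and the 3 from the low set lay above every Prevention library. SHAM libraries were at 3161 (lowest), 3255 (median) and 3330.2 (highest), a narrow band that overlapped Prevention at its low end and lay inside the OVX range. The change was -0.079 in Treatment against OVX, 0.13 in Treatment against Prevention and -0.11 in Prevention against SHAM, with adjusted p = 0.761, 0.914 and 0.395.

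Of the other alpha subunits, Psma1 was above the SHAM median in all 7 OVX libraries, at 2019 (lowest), 2089.8 (median) and 2478 (highest) in OVX, against 1904 (lowest), 1977 (median) and 2163 (highest) in SHAM. The groups overlapped, and the highest OVX value came from OVX 3 (log2 change 0.090, SE 0.045, 95% interval -0.0043 to 0.18, adjusted p = 0.797). Psma2 averaged 2284 ± 137 in Treatment and 2118 ± 75.2 in Prevention (SD, n = 5 each), with a change of 0.11 (adjusted p = 0.894). With the library set as a term this Psma2 change was 0.047 (95% interval -0.081 to 0.18). Psma3l was the single alpha gene with a change above 0 in Prevention against OVX (0.016, or -0.027 with the library set as a term), and it averaged 3295 ± 119.8 in Treatment and 3089 ± 245 in SHAM (SD, n = 5 and 7; adjusted p = 0.815). Psma8, which takes the place of Psma7 in testis in the mouse, was at 75.5, 71.5, 61.2, 40.2 and 64.6 in Prevention, 61.6, 63.2, 55.3, 62.3 and 51.9 in Treatment, 41.4 (lowest), 66.2 (median) and 90.1 (highest) in OVX and 40.4 (lowest), 56.2 (median) and 69.8 (highest) in SHAM. All 4 groups of Psma8 overlapped. The other alpha genes, Psma4, Psma5 and Psma6, had changes of -0.12, -0.077 and -0.11 in Prevention against OVX. With the library set as a term these were -0.098, -0.11 and -0.0085.

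**Figure D3:**
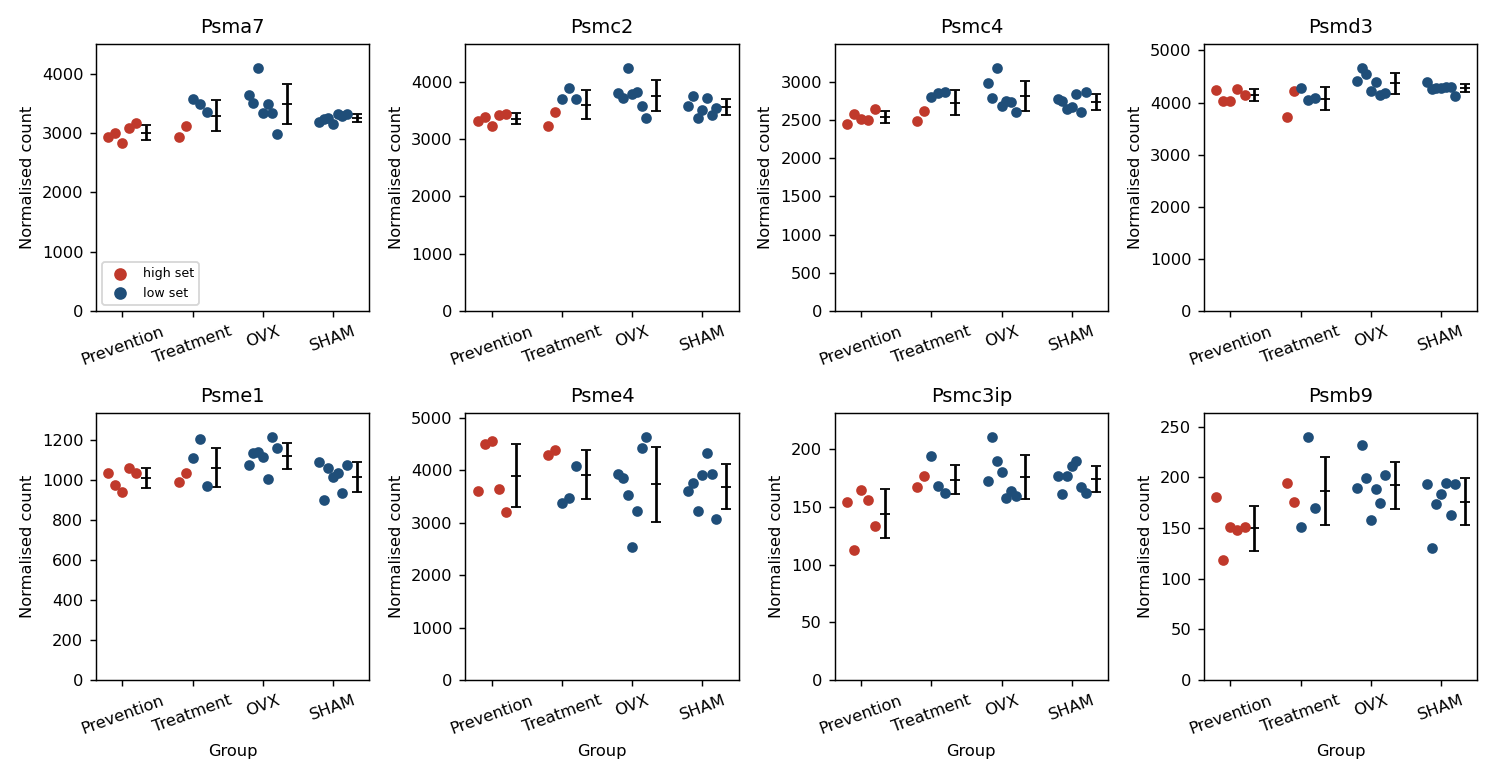
Normalised counts (vertical axes, from 0) of 7 proteasome genes and of the immunoproteasome gene Psmb9 are plotted per library (points, red for the high set and blue for the low set) by group, with the mean and 1 SD as a black bar. For Psma7, Psmc2 and Psmc4 the Prevention points lie below all OVX points but OVX 7, and the red and blue Treatment points lie apart.

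The beta ring holds the protease sites. Of its genes, 7 of 7 were lower in Prevention than in OVX, with a median change of -0.086, beside -0.077 for all 44 genes. In OVX against SHAM 7 of 7 were higher, with a median of 0.067, and none was called in either comparison. With the library set as a term, the change in Prevention against OVX was positive for Psmb1 (0.043), Psmb2 (0.063), Psmb4 (0.057), Psmb5 (0.0050) and Psmb7 (0.048). It stayed negative for Psmb3 (-0.013) and Psmb11 (-0.29). Psmb5, the subunit of the chymotrypsin-like site whose promoter is shown above, was 3015, 2616, 2813, 3059 and 3123 in Prevention, 2798, 3061, 3219, 3061 and 3034 in Treatment, 2719.8 (lowest), 3078 (median) and 3375 (highest) in OVX and 2905 (lowest), 3082 (median) and 3226 (highest) in SHAM. All groups overlapped, and its change was 0.0023 in OVX against SHAM (95% interval -0.093 to 0.10) and -0.080 in Prevention against OVX (95% interval -0.18 to 0.025), or 0.0050 with the library set as a term. Psmb7, the subunit of the trypsin-like site, averaged 4333 ± 169.6 in Prevention, 4402 ± 321 in Treatment, 4502 ± 505 in OVX and 4304 ± 175 in SHAM (SD, n = 5, 5, 7 and 7). The wide OVX spread of Psmb7 came from OVX 3, at 5519.

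Psmb3, a noncatalytic beta subunit, was 2045 (lowest), 2174 (median) and 2543 (highest) in OVX, against 1952 (lowest), 2079 (median) and 2145 (highest) in SHAM. The highest value was again OVX 3, and the groups overlapped (log2 change 0.091, SE 0.046, 95% interval -0.0029 to 0.19, adjusted p = 0.797). Psmb1 averaged 3705 ± 255 in Treatment and 3889 ± 265 in OVX (SD, n = 5 and 7; log2 change -0.070, adjusted p = 0.732). Psmb11, a subunit of the thymus in the mouse, was at 17.6, 22.8, 23.05, 14.5 and 22.5 in Treatment, against 20.7 (lowest), 23.4 (median) and 33.1 (highest) in OVX. All 5 Treatment values were below the OVX median, with a change of -0.34 and a 95% interval of -0.74 to 0.064, the widest of the beta ring. Psmb2 and Psmb4 had changes of -0.11 and -0.043 in Prevention against OVX, or 0.063 and 0.057 with the library set as a term.

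The ATPases form the ring of the cap that unfolds substrates. In Prevention against OVX, 5 of the 6 were lower, with a median change of -0.12, and 0 of 6 were called. By limma, 3 of 6 were lower at an unadjusted p under 0.05, beside 8.56% of all features lower and 18.6% in either direction. Psmc2 was 3317, 3389.9, 3220.2, 3417 and 3445 in Prevention, against 3375 (lowest), 3785 (median) and 4236 (highest) in OVX. All 5 Prevention values were below the OVX median, and OVX 7 alone reached into the Prevention range (log2 change -0.16, SE 0.048, 95% interval -0.26 to -0.061, adjusted p = 0.0896). Psmc4, whose promoter above has neither motif, was 2445, 2574, 2509, 2500.0 and 2650.1 in Prevention, against 2607 (lowest), 2748 (median) and 3179 (highest) in OVX, with the same overlap through OVX 7 (log2 change -0.15, SE 0.046, 95% interval -0.25 to -0.056, adjusted p = 0.0945). Without OVX 7, Psmc2 passed with a change of -0.19 (adjusted p = 0.0349) and Psmc4 with -0.17 (adjusted p = 0.0482). That fit called 481 of 16109 features (2.99%), beside 3 of the 44 proteasome genes (6.82%), Psma7 being the other one.

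In Treatment, Psmc2 was 3229, 3481, 3708, 3895 and 3705 and Psmc4 was 2493, 2625, 2798, 2855 and 2863, for replicates 1, 2, 5, 6 and 7. For both genes the 2 libraries of the high set were the lowest and the 3 of the low set were above every Prevention library. With the library set as a term, the change in Prevention against OVX was 0.0078 for Psmc2 and -0.00084 for Psmc4. In SHAM, Psmc2 averaged 3556 ± 141 and Psmc4 2736 ± 103 (SD, n = 7), and Psmc4 in Prevention was lower than SHAM by a change of -0.11 that did not pass (adjusted p = 0.300). Psmc1, Psmc3, Psmc5 and Psmc6 had changes of -0.089, -0.13, -0.11 and 0.014 in Prevention against OVX. With the library set as a term these were 0.10, 0.081, -0.033 and 0.015.

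The remaining cap subunits belong to the base scaffold and the lid, and Psmd2, Psmd3 and Psmd11 among them had the 3 smallest spreads within groups of the 44 genes. For Psmd2, a scaffold of the base, the SD within groups was 0.053 on the log2 scale, and its highest library exceeded its lowest by 1.14-fold. Its changes were -0.0082 in Prevention against OVX (95% interval -0.082 to 0.065) and 0.022 in OVX against SHAM (95% interval -0.046 to 0.089). Psmd4, a receptor for ubiquitin chains, had the largest change of the base in Prevention against OVX, averaging 2845 ± 199 in Prevention and 3189 ± 318 in OVX (SD, n = 5 and 7; log2 change -0.16, adjusted p = 0.149, or -0.032 with the library set as a term). Among the 8 lid genes, the changes in Prevention against OVX ran from -0.076 to 0.011, with 7 of 8 lower and 0 called. With the library set as a term they ran from -0.086 to 0.063.

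Psmd3, a lid subunit, had the smallest p of the family in Treatment against OVX. It was 3715, 4223, 4279, 4056 and 4091 in Treatment, against 4147 (lowest), 4404 (median) and 4659 (highest) in OVX. All 5 Treatment values were below the OVX median, the lowest being Treatment 1, and the groups overlapped (log2 change -0.10, SE 0.037, 95% interval -0.18 to -0.026, adjusted p = 0.639). Prevention averaged 4142 ± 111 and SHAM 4277 ± 80.1 (SD, n = 5 and 7), so that both E2 groups stood below both vehicle groups in their means, with changes of -0.076 in Prevention against OVX and -0.072 in Treatment against SHAM that did not pass. With the library set as a term, Psmd3 had changes of -0.012 in Prevention against OVX and 0.018 in Prevention against SHAM. For Treatment the changes with this term were -0.076 against OVX (95% interval -0.16 to 0.012) and -0.047 against SHAM (95% interval -0.13 to 0.041). Psmd14, the enzyme of the lid that cuts ubiquitin chains off the substrate, averaged 1749 ± 86.9 in Treatment, 1748 ± 122 in OVX and 1646 ± 79.995 in SHAM (SD, n = 5, 7 and 7). Its changes were 0.088 in Treatment against SHAM and 0.085 in OVX against SHAM, neither of which passed.

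Of the assembly chaperones, 0 of 7 were called in any comparison, and 7 of 7 were lower in Prevention than in OVX, with a median change of -0.047. With the library set as a term, Psmd5 (0.037) and Psmg3 (0.12) had positive changes in Prevention against OVX, and the other chaperones negative ones. Psmd9, a chaperone of the cap base, was 907, 852, 1014, 924 and 925 in Prevention, against 949 (lowest), 1017 (median) and 1071 (highest) in SHAM. All but 1 of the Prevention values were below the SHAM range, and the groups overlapped through that library (log2 change -0.14, SE 0.055, 95% interval -0.25 to -0.024, adjusted p = 0.270). With the library set as a term, the Psmd9 change in Prevention against SHAM was -0.052 (95% interval -0.26 to 0.16). Psmd5, another cap chaperone, averaged 1117 ± 40.5 in Treatment and 1055 ± 63.5 in SHAM (SD, n = 5 and 7; adjusted p = 0.831).

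The genes Psmg1 to Psmg4 encode the chaperones that build the alpha ring. Psmg1 averaged 740.4 ± 22.1 in Prevention, 758 ± 21.1 in Treatment, 802 ± 66.1 in OVX and 769 ± 68.0 in SHAM (SD, n = 5, 5, 7 and 7). Psmg4 averaged 332 ± 29.5 in Prevention, 355 ± 14.2 in Treatment, 364 ± 32.5 in OVX and 368 ± 34.8 in SHAM. The change in Prevention against OVX was -0.11 for Psmg1, -0.022 for Psmg2, -0.039 for Psmg3 and -0.13 for Psmg4, with adjusted p = 0.326, 0.910, 0.827 and 0.358.

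The activators replace the cap on the core particle. Psme1 and Psme2 form a ring together and are induced by interferon, and Psme4 encodes a single large activator of the nucleus. Psme1 had the smallest p of the family in OVX against SHAM: it was 1005 (lowest), 1137 (median) and 1212 (highest) in OVX, against 897 (lowest), 1036 (median) and 1089 (highest) in SHAM. In OVX, 6 of 7 libraries were above the SHAM median, OVX 3 was not the highest, and the groups overlapped (log2 change 0.14, SE 0.055, 95% interval 0.032 to 0.26, adjusted p = 0.795). In Prevention, Psme1 was 1037, 977, 939.6, 1059.7 and 1033, close to the SHAM level and below the OVX median in all 5 libraries (log2 change -0.15, SE 0.060, 95% interval -0.27 to -0.027, adjusted p = 0.180). With the library set as a term, the Psme1 change was -0.040 in Prevention against OVX and 0.10 in Prevention against SHAM. In Treatment it was 988, 1032, 1112, 1206 and 968, with the highest value in Treatment 6. Psme2 averaged 911 ± 63.2 in Prevention, 969 ± 85.4 in Treatment, 988 ± 51.4 in OVX and 973 ± 42.0 in SHAM (SD, n = 5, 5, 7 and 7), and it too was highest in Treatment 6, at 1117.

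Psme4 varied in another way. It was 3602, 4493, 4548, 3635 and 3207 in Prevention, 4287, 4376, 3378, 3466 and 4082 in Treatment, 2534 (lowest), 3855 (median) and 4624 (highest) in OVX and 3068 (lowest), 3753 (median) and 4319 (highest) in SHAM. Every group ranged widely, and the means differed by less than the SD within groups. Its SD within groups was 0.23 on the log2 scale, beside a median of 0.089 over the 44 genes and 0.15 over all tested features. Its highest library was OVX 7, where most other proteasome genes were low, and its lowest was OVX 4. The change was 0.075 in Prevention against OVX (95% interval -0.18 to 0.33), or -0.18 with the library set as a term. Psmf1, which inhibits the core particle in vitro, averaged 1069.7 ± 72.1 in Prevention, 1128 ± 90.9 in Treatment, 1165 ± 63.7 in OVX and 1116 ± 63.2 in SHAM (SD, n = 5, 5, 7 and 7), with -0.12 in Prevention against OVX (adjusted p = 0.229), or 0.023 with the library set as a term.

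Psmc3ip, the gene that is no subunit, showed the largest change among the 4 smallest p in Prevention against OVX. It was 155, 112, 165, 156 and 133 in Prevention, 167, 177, 194, 168 and 162 in Treatment, 157 (lowest), 173 (median) and 210.1 (highest) in OVX and 161 (lowest), 177 (median) and 189 (highest) in SHAM. All Prevention libraries but Prevention 3 were below every library of the other 3 groups, and Prevention 3 was below the median of each. Psmc3ip had a log2 change of -0.29 (SE 0.093) against OVX, -0.28 against SHAM and, for Treatment against Prevention, 0.28, with adjusted p = 0.103, 0.173 and 0.753. With the library set as a term the change against OVX was -0.28, almost as large as without it, with an SE of 0.17.

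The immunoproteasome subunits, which replace catalytic beta subunits in immune cells and after interferon, were set beside the family. Psmb9 was 181, 118, 151, 148 and 151 in Prevention, 195, 176, 151, 239 and 170.0 in Treatment, 158 (lowest), 189.9 (median) and 232 (highest) in OVX and 131 (lowest), 184 (median) and 194 (highest) in SHAM. All 5 Prevention values were below the OVX median, the groups overlapped, and the change did not pass (log2 change -0.36, SE 0.12, 95% interval -0.61 to -0.11, adjusted p = 0.120). Psmb8 averaged 161 ± 55.5 in Prevention and 180.3 ± 32.4 in OVX, and Psmb10 averaged 576 ± 31.95 in Prevention and 623 ± 61.3 in OVX (SD, n = 5 and 7). The 10 microglial markers, as a mean log2 value, were at 10.02 to 10.24 in Prevention and 10.01 to 10.28 in OVX, and their part in these values was not tested.

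Of 13 other proteasome parts and regulators and 13 genes of ubiquitin supply and transport, 0 were called in any comparison by limma. In Prevention against OVX, an unadjusted p under 0.05 was found for 2 higher and 1 lower of the 13 other parts and regulators, and for 4 higher and 3 lower of the ubiquitin genes, beside 10.1% of all features higher and 8.56% lower. Nfe2l1, the transcription factor named above, averaged 6328 ± 369.7 in Prevention, 6471 ± 265 in Treatment, 6126 ± 260.4 in OVX and 6285 ± 232 in SHAM (SD, n = 5, 5, 7 and 7), with 0.046 in Prevention against OVX (95% interval -0.037 to 0.13). Zfand5, which binds ubiquitin and stimulates the proteasome, and Ube3c, a ubiquitin ligase on the proteasome, were chosen after their values were seen. Zfand5 averaged 6057 ± 315 in Prevention and 5186 ± 477 in OVX (SD, n = 5 and 7; log2 change 0.23, adjusted p = 0.0718). Ube3c averaged 5563 ± 322 in Prevention and 4813 ± 236 in SHAM (SD, n = 5 and 7; log2 change 0.21, adjusted p = 0.0594). Zfand5 thus stood higher in Prevention than in OVX and Ube3c higher in Prevention than in SHAM, and neither passed. Both changes are from the fit without the library set as a term.

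Libraries of the same group differed widely in the family as a whole. The number of the 44 genes above their own median over all libraries was 6, 21, 10, 11 and 24 in the Prevention libraries, and 5, 26, 33, 27 and 32 in the Treatment libraries. It was 10 to 43 in OVX, with a median of 27, and 8 to 38 in SHAM, with a median of 21. In OVX 3 the count was 43 of 44 and in OVX 1 it was 41, whereas OVX 7 had 10. OVX 3 held the highest value of 75% of the genes, beside 14.8% of all tested features. The mean log2 value of 13 core subunits was 11.3 to 11.4 in Prevention and in SHAM, and in Treatment it was also 11.3 to 11.4. In OVX it was 11.3 to 11.4 in every library but OVX 3, at 11.6.

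**Figure D4:**
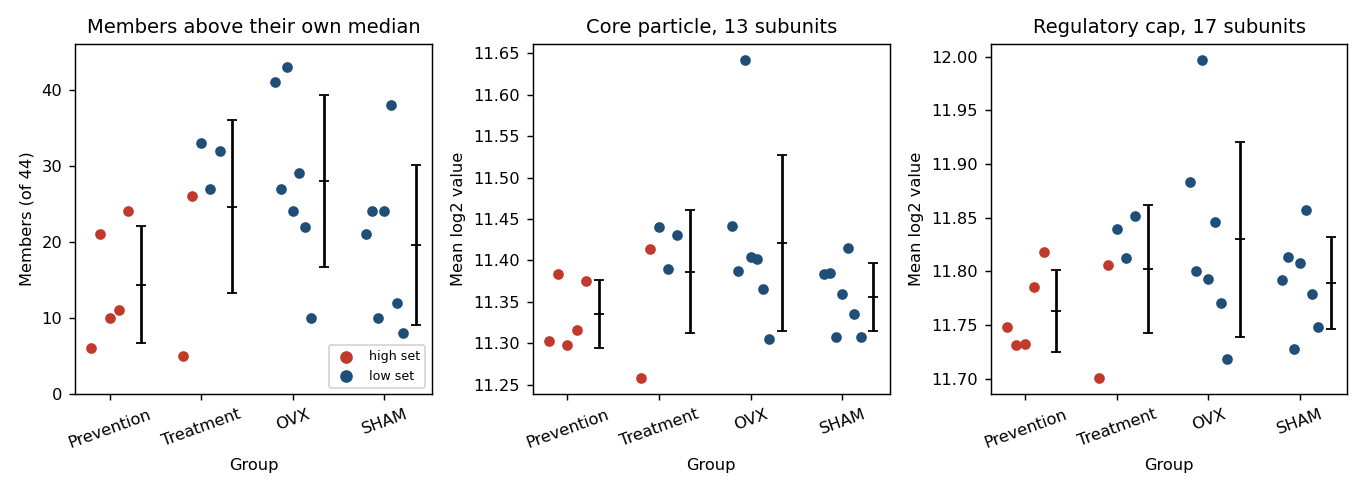
Points are libraries by group, red for the high set and blue for the low set, and black bars are the mean and 1 SD: the number of genes above their own median (left), and the mean log2 normalised count of 13 core subunits (middle) and of 17 cap subunits (right); the vertical axes of the middle and right plots do not start at 0. OVX 3 is the highest point in all 3 plots and OVX 1 the next, while OVX 7 lies among the lowest points of the low set.

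Without OVX 3 the median change over the 44 genes in OVX against SHAM was 0.015, with 32 of 44 above 0, compared with 0.050 and 42 of 44 with it. For Prevention against OVX it was -0.051, with 33 of 44 below 0, compared with -0.077 and 40 of 44. In Treatment against OVX it was -0.0026, with 23 of 44 below 0, compared with -0.027 and 35 of 44. The medians of the comparisons that do not contain this library did not change.

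The library set moved with the family as well. Genes above their own median numbered 5 to 26 in the 7 libraries of the high set and 8 to 43 in the 17 of the low set. Within Treatment, the only group in both sets, they numbered 5 and 26 in the high set and 27 to 33 in the low set. With the set as a term, which rests on these 5 Treatment libraries where Prevention is compared with a vehicle group, the median change in Prevention against OVX was -0.0087, with 25 of 44 below 0. The sign of the change was opposite to that without the term for 21 of the 44 genes in Prevention against OVX and 23 in Prevention against SHAM. It was opposite for 18 in Treatment against OVX, 16 in Treatment against Prevention, 11 in Treatment against SHAM and 0 in OVX against SHAM. In Treatment against Prevention it was 0.0060, with 26 of 44 above 0, and this is also the value within the high set. Against SHAM it was 0.045 for Prevention, where it had been -0.023, and 0.054 for Treatment. Prevention and the library set cannot be told apart further than this term allows.

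**Figure D5:**
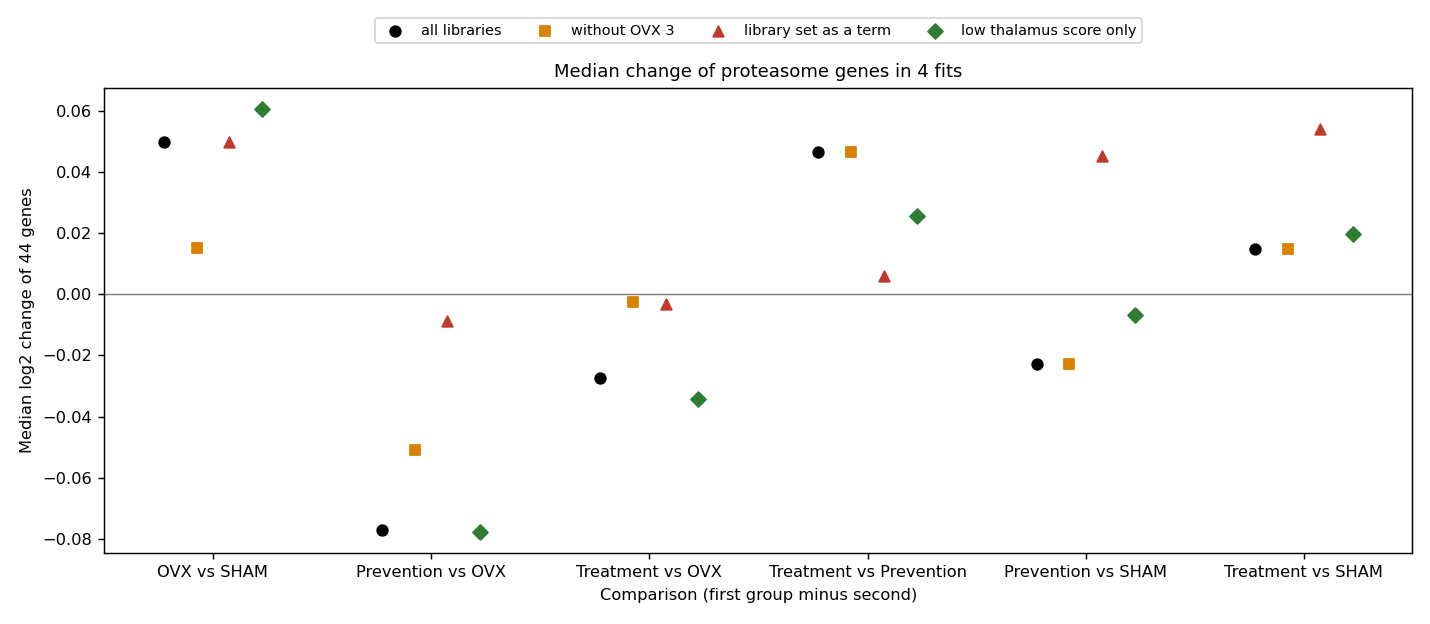
The median log2 change of the 44 genes (vertical axis) is shown for each comparison (horizontal axis, first named group minus second) in 4 fits: all libraries, without OVX 3, with the library set as a term, and with the libraries of a thalamic marker score of at most 10. In Prevention against OVX the median is -0.077 with all libraries and -0.0087 with the set as a term. The fit at a low thalamic score leaves out Prevention 1 and 4, Treatment 6, OVX 2 and SHAM 5.

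In the libraries with a thalamic score of at most 10, the median was -0.078 in Prevention against OVX and 0.061 in OVX against SHAM. This leaves out Prevention 1 and 4, Treatment 6, OVX 2 and SHAM 5. It keeps OVX 3, and Prevention 2, 3 and 5, which all belong to the high set. Without the library set as a term, other gene families of basic cell function had medians of the same sign. The median in Prevention against OVX was -0.12 for 56 cytosolic ribosomal protein genes, -0.11 for 73 mitochondrial ribosomal protein genes and -0.084 for 70 nuclear genes of the respiratory chain, beside -0.077 for the proteasome genes. In OVX against SHAM these medians were 0.088, 0.053 and 0.053, beside 0.050. With the library set as a term, the medians of these families in Prevention against OVX were above 0, at 0.052 for the cytosolic ribosomal, 0.020 for the mitochondrial ribosomal and 0.077 for the respiratory chain genes, beside -0.0087 for the proteasome genes. The difference between the families was not tested.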

How the data were processed

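RNA of 24 rat hippocampus libraries was quantified with kallisto 0.43 and normalised with DESeq2, per the submitters' processing notes. The deposited values are the authors' normalised counts, treated here as a signal with no absolute unit. The genome build, annotation, strand setting and DESeq2 version were not given in the sources used here. Whole reads could not be recovered, so depth is unknown, no counting intervals were computed, and precision rests on the spread between libraries.

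Values were taken as log2(normalised count + 1), and features with a mean of at least 10 were tested. All 24 libraries went into 1 linear model with a mean per group in R 4.3.3 with limma 3.58.1 (empirical Bayes with a mean-variance trend). It gave 6 comparisons, adjusted by Benjamini-Hochberg over 16119 features, with a threshold of 0.05. The 44 genes are described by counts and medians beside all features. Intervals are 95% intervals of the fit.

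The genes, lists and naming rule were chosen with earlier results of these data known. The rule named genes past the threshold, the 4 smallest p per comparison, Psmb5, Psmb7, Psmb8 to Psmb11, Psma8, Psmc3ip, the activators, the inhibitor, Psmg1 to Psmg4 and Nfe2l1. Psma4, Psma5, Psma6, Psmb2, Psmb4, Psmc1, Psmc3, Psmc5, Psmc6, Psmd2, Psmd4, Psmd11, Zfand5 and Ube3c were named after their values were seen. Each result was recomputed with other pseudocounts (0.5 and 8), with other filters (none, and a mean of 100), with quantile or upper quartile rescaling, on each pair of groups alone and with the replicate number as a block. It was also recomputed with the library set as a term, with a thalamus or choroid plexus score as a covariate, within a set, and without each library. The fits limited to a low thalamus score, and with set and score together, were chosen after seeing the data. Promoters are from RefSeq (GRCr8), matched by symbol. Python 3.11.15 read the promoters and matplotlib 3.10.9 plotted the figures.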

Additional observations from a re-analysis of the deposited data

Results flagged for a closer look

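Of 136 groups of libraries checked for a value far from the others, 10 held one, where the 95% critical value used lets chance flag about 1 in 20 groups. Many of the groups share libraries. OVX 3 stood above the other OVX libraries in the mean log2 value of the 13 core subunits (11.6, the next OVX library being at 11.4) and of the assembly chaperones (9.30, the next at 9.20). It also stood above them in 4 single genes: the normalised count was 2478 for Psma1, 2501 for Psma2, 4421 for Psmb1 and 2543 for Psmb3, where the next OVX libraries had 2197, 2253, 3943 and 2219. Treatment 1 stood below the other Treatment libraries in the core subunits (11.3, the next at 11.4), in Psma1 (1889, the next at 2123) and in the number of the 44 genes above their own median, which was 5 beside 26 in the next. Psme2, a subunit of the interferon-induced activator, stood above the other Treatment libraries in Treatment 6, at 1117 beside 967. OVX 3 belongs to the low library set and Treatment 1 to the high set.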

How the results depend on the processing

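The number of proteasome genes called was 0 in 224 of 226 combinations of comparison and setting. In Prevention against OVX it was 1 with the thalamus score as a covariate (Psma7, adjusted p = 0.0497) and 3 without OVX 7, so that leaving out a library gave 0 to 3. The median change in Prevention against OVX was -0.0087 with the library set as a term and 0.00060 with the set and the thalamus score, and in Prevention against SHAM 0.045 and 0.046. With the set as a term the change was 0.085 for Psma7 and 0.041 for Psmc4 in Prevention against SHAM, 0.0078 for Psmc2 in Prevention against OVX, and 0.00056 for Psma7 in Treatment against OVX, also within the low set. With set and score together these were 0.095, 0.059, 0.0022 and 0.0019, and 0.015 for Psmc4 in Prevention against OVX. Of 903 values of the 24 pairs of gene and comparison with the smallest p, these 10 single-gene values had the sign opposite to the fit of all libraries without these terms, and the cause was not tested.

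Leaving out a library moved the median between 0.015 (without OVX 3) and 0.063 (without OVX 7) in OVX against SHAM, between -0.097 (without OVX 7) and -0.051 (without OVX 3) in Prevention against OVX, between -0.055 (without OVX 7) and -0.0026 (without OVX 3) in Treatment against OVX, between 0.030 and 0.072 in Treatment against Prevention, between -0.036 and -0.012 in Prevention against SHAM, and between 0.0056 (without Treatment 5) and 0.041 (without Treatment 1) in Treatment against SHAM.

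Over all features, 49 were called in Prevention against OVX and 57 in Prevention against SHAM. These counts were 97 and 88 with a mean of at least 100, 5 and 156 in each pair alone, 454 and 124 with the thalamus score, 265 and 127 with the choroid plexus score, and 0 and 0 with the set as a term, with set and score, or at a low thalamus score. The low thalamus score left Prevention 2, 3 and 5 as the Prevention libraries. Leaving out a library gave 1 (without Prevention 3) to 481 (without OVX 7) in Prevention against OVX and 10 (without Prevention 2) to 153 (without SHAM 5) in Prevention against SHAM. In Treatment against Prevention 0 were called, but 2 with a pseudocount of 8, 3 with the thalamus score and 0 to 11 (without Treatment 2) with a library left out. In Treatment against SHAM 1 was called, but 3 with quantile normalisation, 6 in the pair alone and 1 to 5 (without Prevention 2) with a library left out.

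By their median, libraries with the same replicate number were not more alike than others. The deviations of 30 same-numbered pairs had a median r of -0.12, beside 0.035 for pairs with other numbers. Their r ranged from -0.44 to 0.37, with 8 over 0.1, and this check cannot show that no libraries were paired. With the replicate block, 0 proteasome genes were called, the median was -0.089 in Prevention against OVX and 0.050 in OVX against SHAM, and over all features 3 were called in Prevention against OVX, 4 in Prevention against SHAM and 0 in Treatment against SHAM.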
